A study of Rattus norvegicus with 9 samples.

Results

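The cytosolic ribosomal protein genes encode the protein part of the ribosomes that translate messenger RNA in the cytoplasm. They were taken by name, as all gene symbols made of Rps or Rpl and a number with at most 1 closing letter a, x, y or l, together with Rplp0, Rplp1, Rplp2 and Rpsa. This gave 74 of 19090 symbols on the array, of which 30 encode proteins of the small subunit, 38 proteins of the large subunit, 3 proteins of the ribosomal stalk and 3 are paralogs of such genes (Rpl3l, Rpl10l and Rps27l). Kinases of ribosomal protein S6 were not included. The naming rule itself uses no measured value, and no gene was left out by a filter. The family was nevertheless chosen with earlier results of these data known.

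Skin of Sprague Dawley rats was profiled on 1-colour arrays in 2 groups. The CGN group (n = 4) received carrageenan, a seaweed polysaccharide that provokes acute inflammation, at 30 mg/kg; paw swelling and pressure pain were tested at 3 hours and skin was harvested at 4 hours. The control group (n = 5) was titled non-treated and had no CGN, and no vehicle or hour of harvest is named for it. The labels do not say where CGN was given or which skin was harvested, so CGN and the procedure of giving it cannot be told apart.

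A ribosome has a small subunit, which reads the messenger RNA, and a large subunit, which joins the amino acids. The stalk on the large subunit, built of the P proteins, recruits the factors that drive translation. Most of the proteins are needed in equal copy number, and the genes are among the most strongly transcribed in any tissue. Many of their transcripts, like those of several translation factors, start with a C followed by a run of pyrimidines, the 5′ terminal oligopyrimidine (TOP) motif, through which the kinase complex mTORC1 and the protein LARP1 control their translation. Arrays of total RNA measure transcript levels and not translation.

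The TOP start is the regulatory sequence that these genes are known to share, so it was looked for in their annotated starts. RefSeq's promoter table (build GRCr8) held 58 of the 74 genes, 57 of them with a single promoter. A start was counted as TOP-like where the annotated first base was C and at least 4 bases of C or T followed. That held for 21 of the 57 genes (36.8%), against 2.63% of all 33469 promoters in the table. Below are windows of 30 bases, 10 before and 20 from the annotated start, on the strand of the gene. Capitals mark the C and its run of pyrimidines. Shown are the 4 genes with such a start that were lower in CGN (Rpl10a, Rplp0, Rpl28 and Rps15), 2 with such a start that did not pass the test (Rps18 and Rps27), and the muscle paralog Rpl3l, whose annotated start has none. The windows are chr20:6390523-6390552 (plus strand) for Rpl10a, chr12:46718371-46718400 (minus) for Rplp0, chr1:78083513-78083542 (minus) for Rpl28, chr7:10068096-10068125 (minus) for Rps15, chr20:4933735-4933764 (plus) for Rps18, chr2:177964587-177964616 (minus) for Rps27 and chr10:14258436-14258465 (plus) for Rpl3l.
Rpl10a: cttctgccttCTTTTCCggttcccgcagcc
Rplp0: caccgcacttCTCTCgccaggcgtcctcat
Rpl28: cccctagtgtCTTTCTTTCCgtctccggcc
Rps15: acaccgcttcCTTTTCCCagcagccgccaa
Rps18: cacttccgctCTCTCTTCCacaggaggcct
Rps27: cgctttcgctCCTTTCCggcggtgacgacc
Rpl3l: ctggtgcctggtggggaggtcccttcctaa

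A match describes the letters at an annotated start and does not show that transcription begins there. The median log2 change between the groups, described next, was -0.19 for the 21 genes with a TOP-like start, of which 4 were lower in CGN, and -0.23 for the 36 without, of which 8 were lower. The letters CCGGAAG, the core bound by ETS transcription factors such as GABPA, stood on either strand of the 300-base promoter in 18 of the 57 genes (31.6%) and in 8.75% of all promoters. In 3 of the genes this match overlapped the TOP-like run. The median change was -0.15 with the motif (2 of 18 lower) and -0.23 without it (10 of 39 lower). Over all symbols 13.5% were lower, with a median change of -0.02. Among the 9545 symbols brighter than the median symbol 23.6% were lower. The differences between these sets of genes were not tested.

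Arrays of the same group correlated at r = 0.986 to 0.994 among controls and 0.983 to 0.991 in CGN, and at 0.953 to 0.980 between the groups. Transcripts used as markers of cell types differed between the groups as well. Skeletal muscle markers were lower in CGN in 16 of 16 cases, with a summed intensity of 15047 to 75974 in controls and 1098 to 8249 in CGN. Neutrophil markers were higher in 6 of 7 cases (1976 to 2766 against 6144 to 17160) and macrophage markers in 3 of 4 (4798 to 8118 against 20225 to 26954). Over all symbols 13.5% were lower and 8.71% higher. Most of the neutrophil sum came from S100a8 and S100a9, and most of the macrophage sum from Lyz2. Fpr1 (0.08 ± 0.09, adjusted p = 0.618) and Csf1r (0.17 ± 0.21, adjusted p = 0.665) did not pass. Of the 8 keratinocyte markers, which define the main cell of the epidermis, 1 was higher and 0 were lower, and their sums overlapped (56879 to 67047 against 58021 to 65916). No marker stood at 0. In whole skin, fewer cells of a type and less RNA per cell cannot be told apart.

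Ribosomal protein transcripts were lower in CGN skin, by a small amount spread over most of the family. Of the 74 genes 14 passed the test (limma, adjusted p under 0.05), all 14 lower in CGN and 0 higher. That is 18.9% of the family lower, where 13.5% of all symbols were lower and 8.71% higher. The share of calls was little above that background, and below the 23.6% lower among the 9545 symbols brighter than the median symbol. By direction, 70 of 74 genes (94.6%) had a mean below that of the controls, against 52.9% of all symbols. The median log2 change was -0.18, a level 12.0% lower, where the median of all symbols was -0.02. In 29 of 74 genes (39.2%) every CGN array lay below every control array, against 10.6% of all symbols, and in 0 genes every CGN array lay above. The 9545 brighter symbols had a median change of -0.12, with 61.9% of them below the control mean. In 18.2% of these every CGN array lay below every control array. The 3 genes just outside the threshold were Rpl24 (adjusted p = 0.0519), Rpl6 (0.0557) and Rps6 (0.0623), and the one just inside was Rpl27 (0.049). These values and those of Rpl12, Rps16, Rps15, Rpl27, Rpl28 and of the genes above 0 are named after they were seen.

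**Figure D1:**
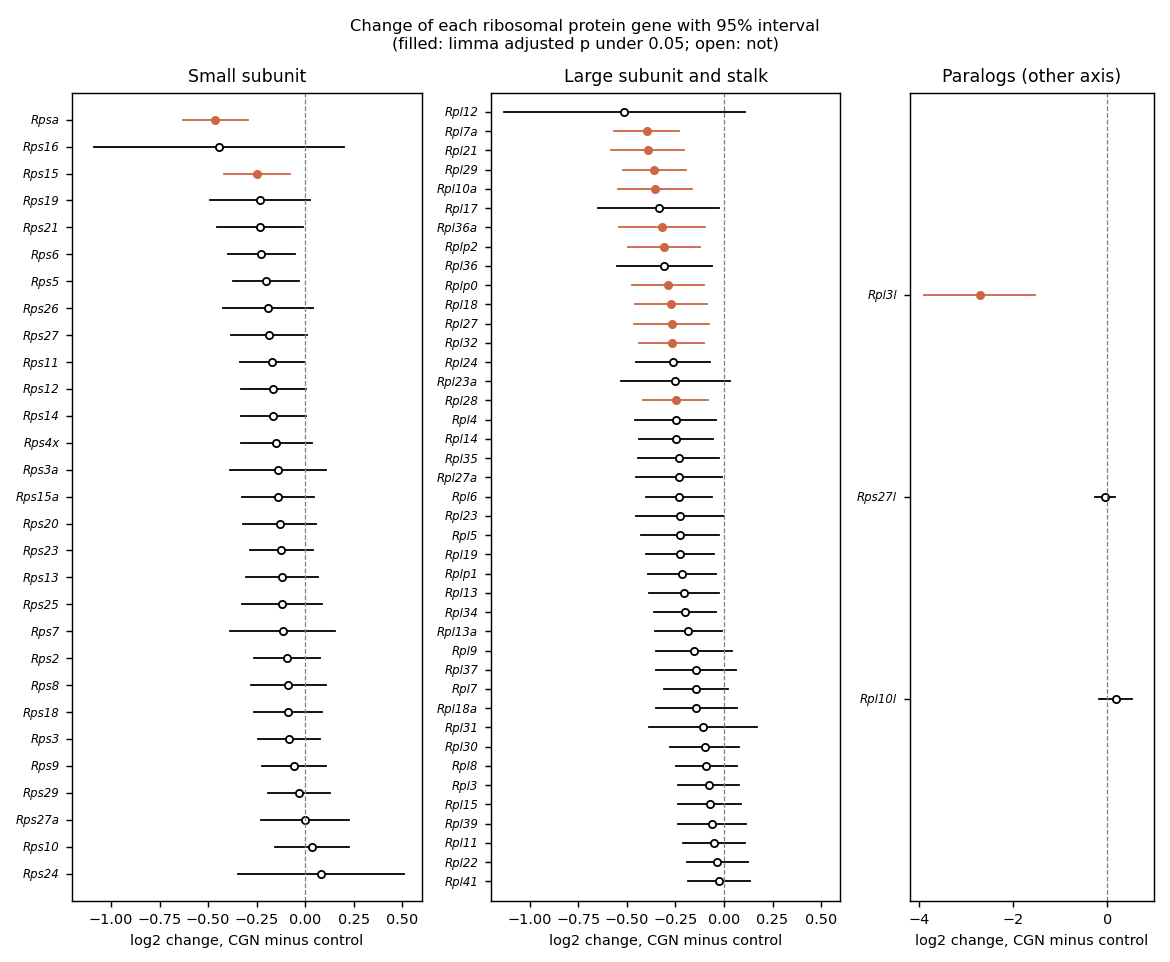
Log2 change (CGN minus control) of 73 of the 74 genes with its 95% interval, by part of the ribosome, with genes sorted by change; filled points passed the test. Nearly all points lie left of 0, mostly between 0 and -0.50, and Rpl3l, drawn on an axis of its own with the other paralogs, stands at -2.72.

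The shift was present in each CGN array. Expressed as the median over the 74 genes of the log2 distance from the gene's control mean, the controls stood at -0.03, 0.02, 0.01, -0.04 and 0.04 (replicates 1 to 5) and the CGN arrays at -0.11, -0.16, -0.20 and -0.22 (replicates 1 to 4). The arrays of the groups did not overlap on this value, and CGN replicate 1 lay nearest to the controls. The number of genes below their control mean was 64, 69, 66 and 72 of 74 in the CGN arrays and between 15 and 57 in the controls. Over the same arrays the median distance of all symbols lay between -0.04 and 0.01.

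**Figure D2:**
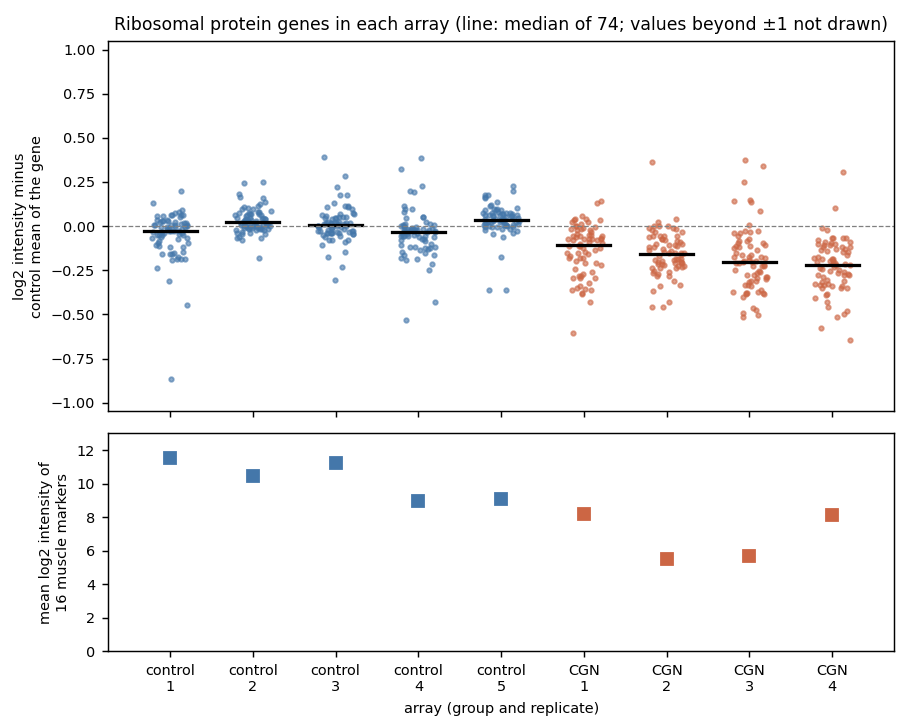
Upper panel, log2 intensity of each of the 74 genes minus its control mean in each of the 9 arrays, with the median as a line; 10 of the values, from the 3 genes Rpl3l, Rpl12 and Rps16, lie beyond ±1 and are not drawn. Lower panel, mean log2 intensity of 16 skeletal muscle markers in the same arrays. The medians fall from about 0 in controls to between -0.11 and -0.22 in CGN, and the muscle marker mean is lower in all CGN arrays than in any control.

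The muscle markers moved with the groups as well. Their mean log2 intensity was 11.53, 10.47, 11.24, 8.99 and 9.11 in controls 1 to 5 and 8.18, 5.48, 5.66 and 8.13 in CGN arrays 1 to 4. The median distances of the ribosomal genes in CGN arrays 1 to 4 were -0.11, -0.16, -0.20 and -0.22. With this mean as a covariate in limma, 0 of the 74 genes passed (8 at an unadjusted p under 0.05), the median change was -0.16 and 69 genes stayed below 0. The covariate correlated with group at -0.82, and in that fit 0.325% of all symbols were lower. Muscle content and CGN therefore cannot be told apart in these arrays.

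The small subunit gave few calls. Of its 30 genes 2 fell (6.67%), against 13.5% of all symbols, 27 had a change below 0, and the median change was -0.13. Rpsa, the small subunit protein also known as the laminin receptor, had intensities of 6465, 6346, 6429, 6288 and 6636 in controls and 4999, 4679, 4497 and 4500 in CGN. The groups were far apart beside their own spread, and Rpsa fell by 0.46 ± 0.08 on the log2 scale, 27.5% lower (adjusted p = 0.00162), the smallest adjusted p of the family. Rps15, which sits in the head of the subunit near the decoding site, was the other, at 6879 to 7851 in controls and 6115 to 6455 in CGN (-0.25 ± 0.08, adjusted p = 0.0412).

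Rps6, the substrate of the S6 kinases that act downstream of mTORC1, stood at 11671, 11897, 11629, 11801 and 12684 in controls and 11013, 9871, 9776 and 10174 in CGN. Its groups did not overlap, but it did not pass the test (-0.23 ± 0.08, adjusted p = 0.0623). Rps3, at the entry of the messenger RNA channel, gave -0.08 ± 0.07 and Rps18, often used as a reference gene, gave -0.09 ± 0.08, both with overlapping groups. Rps27a, which is made as a fusion with ubiquitin, had the smallest difference of the family, with means of 1174 in both groups (-0.00 ± 0.10). Among the 3 small subunit genes above 0, none of which passed, were Rps24 (0.08 ± 0.19) and Rps10 (0.03 ± 0.09).

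Rps16, whose tail reaches the peptidyl tRNA, had the second lowest change of the small subunit at -0.44 ± 0.29. That value rested on 1 control: replicate 3 stood at 872.93, the other controls at 280.31 to 333.66 and the CGN arrays at 241.08 to 308.39. It did not pass (adjusted p = 0.344).

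The large subunit held most of the calls. All 38 of its genes had a change below 0, against 52.9% of all symbols, and the median was -0.23. Of the 38 genes 9 fell (23.7%), against 13.5% of all symbols and 23.6% of the 9545 symbols brighter than the median symbol. In 17 genes (44.7%) the groups did not overlap, with CGN lower, against 10.6% of all symbols and 18.2% of the brighter ones. The array medians were also lower for the large subunit than for the small subunit in each CGN array, at -0.14 and -0.06, -0.18 and -0.13, -0.27 and -0.16, and -0.26 and -0.20 for replicates 1 to 4. The difference between the subunits was not tested, because genes are not replicates.

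Rpl7a stood at 6422, 6394, 6126, 6538 and 6202 in controls and at 4859, 4918, 4500 and 4971 in CGN. It fell by 0.40 ± 0.08, to a level 24.1% lower (adjusted p = 0.00376). Rpl29, a small basic protein of the subunit surface, had controls within 7096 to 7400 and CGN arrays within 5327 to 5784, and fell by 0.36 ± 0.07 (adjusted p = 0.00557). In both genes the gap between the groups was wider than either group.

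Rpl21 stood at 335.87 to 373.26 in controls and 248.19 to 288.40 in CGN (-0.39 ± 0.08, adjusted p = 0.00718). Rpl10a, which forms the mobile L1 stalk at the exit of spent tRNA, stood at 2297 to 2765 against 1926 to 2161 (-0.35 ± 0.09, adjusted p = 0.0134). Rpl36a, which reaches the tRNA exit site, passed with overlapping groups, since control replicate 1 at 3340 lay below CGN replicate 2 at 3426 (-0.32 ± 0.10, adjusted p = 0.0414). Rpl18, Rpl27 and Rpl32 each gave -0.27 and Rpl28 gave -0.25, with adjusted p-values of 0.0392, 0.049, 0.0266 and 0.0382.

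Rpl5 and Rpl11, which with 5S ribosomal RNA bind and inhibit MDM2 when ribosome assembly fails, gave -0.23 ± 0.09 (adjusted p = 0.104) and -0.05 ± 0.07 (adjusted p = 0.703). Rpl11 stood at 15339 to 16190 in controls and 14523 to 15509 in CGN, with the groups overlapping. Rpl13a, which in human cells also joins an interferon-activated complex that silences translation, gave -0.18 ± 0.08 (adjusted p = 0.127), with groups that did not overlap. Rpl39, in the exit tunnel, gave -0.06 ± 0.08. Rpl12, at the base of the stalk, had the lowest change of the subunit (-0.51 ± 0.28) with arrays that overlapped widely, at 113.6 to 270.83 in controls and 89.03 to 204.06 in CGN, and did not pass (adjusted p = 0.244).

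Of the 3 stalk genes 2 fell, where 13.5% of all symbols were lower. Rplp0, which anchors the stalk, stood at 11493, 10513, 10421, 10879 and 11737 in controls and 9789, 8740, 8447 and 9087 in CGN, and fell by 0.29 ± 0.08 (adjusted p = 0.0298). Rplp2, one of the paired acidic proteins it carries, stood at 4824 to 5850 against 4169 to 4581 and fell by 0.31 ± 0.08 (adjusted p = 0.0232). Its partner Rplp1 stood at 1712 to 1882 against 1411 to 1629 and did not pass (-0.22 ± 0.08, adjusted p = 0.0818). The groups of all 3 genes were free of overlap, with CGN lower, as held for 10.6% of all symbols.

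**Figure D3:**
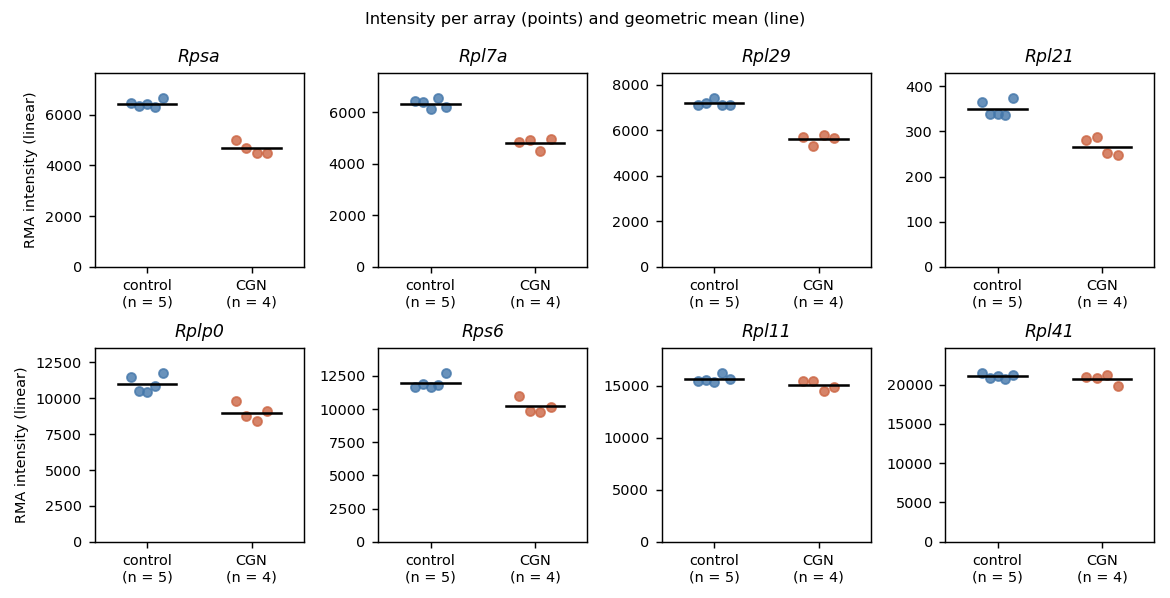
RMA intensity on a linear axis from 0 for 8 genes, with a point per array and the geometric mean of each group as a line. Rpsa, Rpl7a, Rpl29, Rpl21, Rplp0 and Rps6 have every CGN point below every control point, while the points of Rpl11 and Rpl41 overlap between the groups.

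The paralog Rpl3l was the one large change. Rpl3l replaces Rpl3 in the ribosomes of heart and skeletal muscle fibres. Its intensities were 404.53, 193.77, 395.66, 81.59 and 85.40 in controls and 42.77, 21.23, 15.54 and 44.39 in CGN, so the groups did not overlap and controls 1 and 3 were the highest. CGN replicate 3 lay below the median probe set of the arrays, and no detection calls were given. The change was -2.72 ± 0.54, 6.57-fold lower (adjusted p = 0.00459). Rpl3 itself stood at 15141 to 15548 in controls and 14365 to 14832 in CGN (-0.08 ± 0.07, adjusted p = 0.509).

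Rpl3l lay in nearly the order of the muscle markers given above, with the highest values in controls 1 and 3, the next in control 2 and the lowest in CGN replicates 2 and 3. With the muscle mean as a covariate its change was -0.35 (adjusted p = 0.739). Without Rpl3l, the family had 13 of 73 genes lower (17.8%, against 13.5% of all symbols) and the same median of -0.18.

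**Figure D4:**
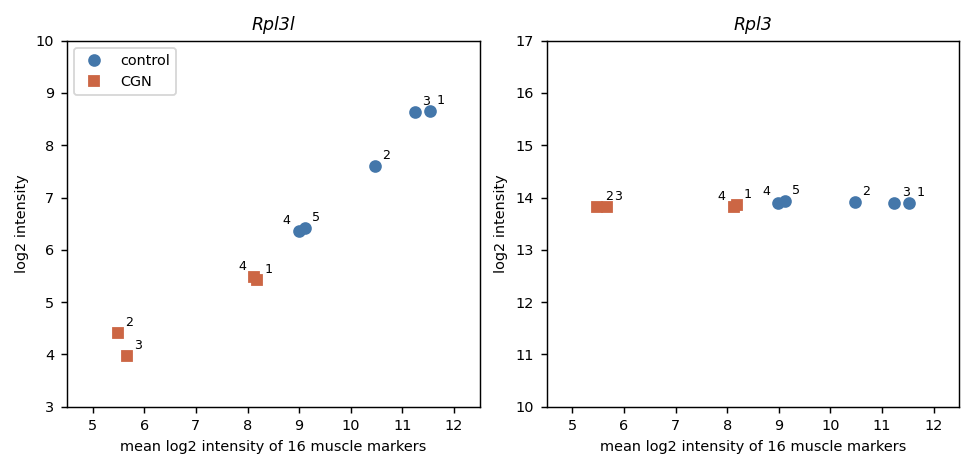
Log2 intensity of Rpl3l (left) and Rpl3 (right) in each array against the mean log2 intensity of 16 skeletal muscle markers, with replicate numbers beside the points and y axes of equal span. Rpl3l runs from about 4 to above 8 along the muscle axis, and Rpl3 stays close to 14 in all 9 arrays.

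A log2 difference between paralogs within an array leaves out the scale of that array. It could be formed for 5 pairs, and its change between groups was tested with two-sided exact permutation tests, for which 0.0159 is the smallest p that 126 splits allow. Rpl3l minus Rpl3 changed by -2.64 (exact p = 0.0159, adjusted over 5 pairs 0.0397). Rpl36al minus Rpl36a changed by 0.24, from -1.76 ± 0.09 (SD, n = 5) in controls to -1.52 ± 0.08 (SD, n = 4) in CGN (exact p = 0.0159, adjusted 0.0397), where Rpl36a fell and Rpl36al gave -0.08 ± 0.10. Rpl7l1 minus Rpl7 changed by 0.18 (exact p = 0.0317, adjusted 0.0397), and neither gene passed the test by itself. Rpl22l1, paired with Rpl22, had mean intensities of 9.55 and 10.1, below the array medians of 16.7 to 17.81, so its probe set was not shown to be above background and its difference is not read as a ratio of paralogs. Rps27l, a p53-induced gene in human cells, minus Rps27 changed by 0.13 (exact p = 0.286). The probe sets of Rpl36a, Rpl7 and Rps27 are marked as able to bind related transcripts, so their differences may not separate the paralogs. Rpl10l, known from the mouse as a testis paralog of Rpl10, had the highest change of the family, 0.18 ± 0.16. Its means were 28.4 and 32.1, and it did not pass (adjusted p = 0.506). Under updated gene names the family held 72 genes and Rpl10l was not among them, so the name of this probe set is open to doubt. Rpl10 and Rpl39l were not analysed here.

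The changes are given next by the brightness of the probe set, which is no measure of transcript number between genes. Among genes with a mean log2 of 13 or more (an intensity of 8192), 1 of 24 was lower (4.17%) with a median change of -0.14, where 11.1% of all 90 symbols this bright were lower and their median was -0.07. Between 10 and 13 (from an intensity of 1024), 11 of 32 were lower (34.4%) with a median of -0.24, against 16.4% lower and a median of -0.05 among all 1266 symbols. Below 10, 1 of 17 was lower (5.88%) with a median of -0.14, against 13.3% and -0.01 over 17734 symbols, Rpl3l left out. The share of calls in the family was thus above that of all symbols in the middle range and below it in the other ranges. The 3 brightest probe sets, those of Rpl41, Rps29 and Rpl11, changed by -0.03, -0.03 and -0.05, and none passed. The dimmest were those of Rpl27a (21.1 in controls and 18.0 in CGN), Rpl10l and Rps7 (67.5 and 62.3), none of which passed. Whether very bright probe sets respond less than their transcripts was not tested.

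Ribosomal protein genes have many processed pseudogenes, and 48 of the 74 probe sets are marked as able to bind related transcripts. The median change was -0.19 for these 48 (8 lower, 16.7%) and -0.16 for the other 26 (6 lower, 23.1%). Over all symbols 13.5% were lower. Further probe sets existed for 11 genes, and 0 of these 12 passed a limma test over all probe sets. For Rpl34 both probe sets were bright and gave -0.20. For Rpl7a the chosen probe set gave -0.40, and the dimmer ones, at 106.1 and 17.8 in controls, gave 0.04 ± 0.09 and 0.78 ± 0.30. Rplp2 (-0.31 and 0.07) and Rpl28 (-0.25 and 0.03) were likewise lower on the bright probe set and not on the dim one, which stood at 69.8 and 55.5 in controls. For Rpl15 the dimmer probe set, at 238.5, had the lower value (-0.29 ± 0.11, against -0.07 ± 0.07).

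Within groups the genes varied together to a degree. The mean pairwise correlation of their deviations from the group means over the 9 arrays was 0.158, and 0.269 within the small subunit and 0.150 within the large subunit. It was 0.00168 over all symbols, 0.0445 over the symbols with a mean log2 of at least 10, and higher than in the family, 0.342, over the 71 mitochondrial ribosomal protein genes. The points share arrays and normalization, so these are descriptions. The 3 symbols outside the family whose pattern over the 9 arrays was most like the members' median were Prkra, an activator of the RNA-dependent kinase PKR (r = 0.993, change -0.82 ± 0.12), Acvr2b, an activin receptor (r = 0.991, -0.84 ± 0.12), and Sox21, a transcription factor of the hair follicle (r = 0.989, -0.85 ± 0.14). These correlations include the difference between the groups. Within the family, 40 genes correlated with that median at r above 0.8. The median is formed from these same genes and holds the group difference, so high values are partly built in.

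Genes with related roles gave values of both signs. For the counts below, 13.5% of all symbols were lower and 8.71% higher. Fau, a fusion gene with a ubiquitin-like part that encodes the small subunit protein Rps30 and that the naming rule leaves out, gave -0.06 ± 0.07 and did not pass (adjusted p = 0.673). Of 20 further genes with known TOP transcripts 6 fell and 2 rose, with a median of -0.21. Among them the initiation factor subunit Eif3f (-0.61 ± 0.11, adjusted p = 0.00273), the helicase cofactor Eif4b (-0.52 ± 0.11, adjusted p = 0.00515) and Gnb2l1, the ribosome scaffold also named Rack1 (-0.40 ± 0.09, adjusted p = 0.00941), were lower. Mitochondrial ribosomal protein genes had the same median change as the cytosolic ones, -0.18, with 16 of 71 lower and 0 higher. Their quartiles were -0.37 and -0.08, and those of the cytosolic genes -0.25 and -0.09. Mrps24 gave -0.55 ± 0.07 and Mrpl34 -1.07 ± 0.17 (adjusted p = 0.000466 and 0.00134).

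Ribosome biogenesis genes, whose products make and process ribosomal RNA, were higher in CGN or did not pass. Of 45 measured 17 rose (37.8%, against 8.71% of all symbols), 0 fell, and the median change was 0.21. Rrp9, which binds the U3 small nucleolar RNA, rose by 0.96 ± 0.14 (179.5 to 349.4, adjusted p = 0.000737), Wdr43 by 0.70 ± 0.12 (adjusted p = 0.00178) and Utp3 by 0.59 ± 0.09 (adjusted p = 0.00145). Of 16 genes of mTORC1 and of the control of these transcripts 3 rose and 4 fell. Myc, a transcription factor that drives ribosome production, rose from 1008 to 2864 (1.51 ± 0.16, adjusted p = 7.91e-05), its partner Max rose by 0.39 ± 0.08, and Mtor fell by 0.44 ± 0.10 (adjusted p = 0.00584 and 0.00737). Initiation factor symbols split into 8 higher and 10 lower of 54. The smallest adjusted p-values included those of Eif1a (1.60 ± 0.17, adjusted p = 0.00011), which helps the small subunit scan for the start codon, and Eif2b5 (-0.50 ± 0.09, adjusted p = 0.00221), a subunit of the exchange factor for eIF2. That list, taken by symbol, also holds kinases and inhibitors that act on the factors, and Eif2c2, an older name of the Argonaute gene Ago2, which is no initiation factor (0.81 ± 0.14). In the pathway through which free Rpl5 and Rpl11 act, 2 of 4 genes rose and 0 fell: Cdkn1a by 1.09 ± 0.11 and Mdm2 by 1.04 ± 0.14 (adjusted p = 6.58e-05 and 0.000624).

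**Figure D5:**
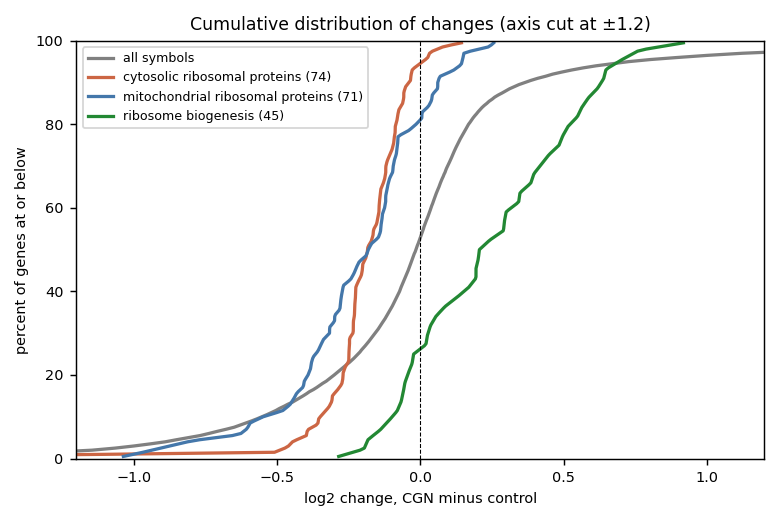
Cumulative distribution of the log2 change (x axis, cut at ±1.2) for all 19090 symbols, the 74 cytosolic ribosomal protein genes, 71 mitochondrial ribosomal protein genes and 45 ribosome biogenesis genes. The curves of both ribosomal protein sets cross 50% near -0.18, that of all symbols near 0 and that of biogenesis genes at 0.21.

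The calls were sensitive to single arrays. Leaving out 1 array at a time gave 6 to 15 lower genes and 0 higher, with a median change of -0.21 to -0.16. The number was 8, 9 and 7 without control replicates 2, 3 and 5, and 6 without either of CGN replicates 3 and 4. Rpsa, Rpl3l, Rpl7a, Rpl21, Rpl29 and Rpl10a passed in 9 of 9 such fits, while Rps15, Rpl27 and Rpl28 passed in 1 of 9, Rpl18 and Rpl36a in 2, Rplp0 in 3, Rpl32 in 5 and Rplp2 in 6.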

How the data were processed

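RNA from rat skin was hybridised to 9 1-colour arrays, 1 array per labelled replicate. The sample titles number replicates and do not name animals. The deposited values were RMA intensities on a linear scale made by the authors, per the submitters' processing notes, with the version not given. RMA corrects background, normalizes arrays against each other and summarises probes into probe sets. The lowest intensity was 4.07 and the highest 27404.42, and array medians lay within 16.7 to 17.81. The files used here gave no probe-level signals, detection calls or scan batches, and a genome build is not given in the sources used here. The number of arrays limits the precision.

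Values came from the deposited value table and gene symbols from the second deposited table, which was checked against it over 43685 shared probe sets. A symbol stood on 27501 probe sets and 16184 had no single symbol. For each of the 19090 symbols the probe set with the highest mean log2 over the 9 arrays was used, with no filter and no pseudocount. The CGN and control groups were the only term of a two-sided limma fit (version 3.58.1, R 4.3.3, moderated by eBayes) with Benjamini-Hochberg adjustment over all symbols at 0.05. Adjusted p-values of genes are from that fit where no other setting is stated. The fit was tested on simulated data. Changes are log2 CGN minus control ± standard error, and group means are geometric means. Pairs of paralogs were compared with exact permutation tests over the 126 ways to choose 4 arrays of 9, in Python 3.11.15.

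The members, the gene lists, the marker lists and the alternatives were chosen with earlier results of these data known. Named by rule were the 10 largest falls among members past the threshold, the 3 smallest adjusted p-values, the 3 brightest and 3 dimmest probe sets, and genes of known role, together 28 members. Some values of single genes are not reported here. Outside the family the rule took, by adjusted p, up to 3 genes from every list, and the 3 genes most like the members' median. Alternatives were quantile normalization, median centring, a filter on dim symbols, other choices of probe set, updated gene names, array weights, the trend and robust options of limma, a replicate block, skeletal muscle markers as a covariate, a 1.2-fold minimum and leaving out each array. Replicate numbers were checked for pairing through the correlations of deviations from the group means. Same-numbered CGN and control arrays gave -0.28, 0.04, 0.01 and -0.12. Of the 4 CGN arrays 0 correlated best with the control of its own number. The check cannot exclude pairing, because it rests on 4 comparisons and the number of the fourth CGN sample is in doubt. The labels do not state pairs, so the numbers were not taken as pairs.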

Additional observations from a re-analysis of the deposited data

Results flagged for a closer look

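In each group of 4 or 5 arrays the 28 named genes and the family's median were searched for a single array far from the rest. Of 58 groups searched 3 held one, about the number chance gives (1 in 20 groups). Rpl10l stood at 23.17 in CGN replicate 1 and at 35.01 to 36.43 in the other CGN arrays. Rpl39 stood at 13374 in CGN replicate 1 and at 12105 to 12251 in the others. Rps6 stood at 12684 in control replicate 5 and at 11629 to 11897 in the other controls.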

How the results depend on the processing

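No gene of the family was higher in CGN under any alternative run, and the median change stayed below 0 in all of them. The number of lower genes, 14 as reported, was 13 to 21 under quantile normalization, median centring, a dim-symbol filter, the mean of probe sets, updated names, trend and robust options and array weights, and 12 with a 1.2-fold minimum. It was 6 of 30 genes with only probe sets not marked as shared, 9 with the second brightest probe set (median -0.15), 4 with the replicate block and 0 with the muscle covariate. Leaving out 1 array gave 6 to 15. The replicate block leaves control replicate 5 without a partner, so it uses 8 arrays, and the samples share only a number. The second deposited table numbers the CGN columns 1, 2, 3 and 5 where the labels give 1 to 4, so the number of the fourth CGN sample, taken here as 4 after the labels, is open to doubt. Of the 4 genes lower with the replicate block, 3 (Rpsa, Rpl7a and Rpl3l) were among the 14. Rpl3l minus Rpl3 stayed between -2.93 and -2.35 without single arrays. The exact p of 0.0286 to 0.0357 in these tests is the smallest that 8 arrays allow.

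Signs turned for Rpl7a with the mean of probe sets (0.139) and the second brightest (0.0395), for Rplp2 (0.0661) and Rpl13a (0.0038) with the second brightest, for Rpl13a (0.0038) without marked probe sets, for Rps29 under quantile normalization (0.000106), for Rps27a with the replicate block (0.00874) and the muscle covariate (0.026), and for Rps7 (0.012) and Rpl10l (-0.334) with the covariate. Rps27a ranged from -0.0475 to 0.0539 without single arrays. The cause was not tested. The files gave no detection calls, so probe sets near background could not be marked.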
